A study of Homo sapiens with 12 samples.

Results

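The translation initiation and elongation factors were taken as the gene symbols that begin with EIF1 to EIF6 or with EEF1 or EEF2, without EIF2AK2, EIF1AY, antisense transcripts and pseudogenes. The rule gave 62 of the 25268 genes listed, and it used no measured value. By role, 41 were initiation factors, 6 were core elongation factors, 3 belonged to the eIF5A family and 12 were associated proteins such as the eIF4E-binding proteins and the eIF2alpha kinases. A mean of at least 0.5 FPKM (fragments per kilobase of transcript, divided by the size of the library) over all libraries was required for testing, and 59 members reached it. The other 3, EEF1E1-BLOC1S5, EIF3CL and EIF4E1B, lay between 0 and 0.795 FPKM in every library and were not tested.

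Initiation factors bring the small ribosomal subunit, the initiator tRNA and the capped mRNA together. eIF4E binds the cap, eIF4G bridges it to the helicase eIF4A and to eIF3, eIF2 carries the initiator tRNA, eIF2B recharges eIF2 with GTP, and eIF5B joins the large subunit. In elongation eEF1A delivers the aminoacyl-tRNA, the eEF1B complex (EEF1B2, EEF1D and EEF1G) recharges eEF1A, and eEF2 moves the ribosome along the mRNA. Many mRNAs of the translation apparatus, among them those of eEF1A, eEF2 and several eIF3 subunits, begin with a C followed by a run of pyrimidines, the 5′ terminal oligopyrimidine (TOP) tract, and are known to move between polysomes and the ribosome-free pool with growth conditions.

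HEK293, a human embryonic kidney cell line, was transiently transfected by Lipofectamine with 2 µg of pCMV6-HIS-HA-RBMX, which expresses tagged RBMX from a plasmid, or with the mock empty vector, whose cells are labelled wild type. RBMX is an RNA-binding protein with a role in splicing, and the paper describes it in the nucleus and in the cytoplasm. There were 3 biological samples for each vector, and each gave a polysomal library from the heavy fractions of a sucrose gradient and a total library pooled from 20% of each fraction, after a brief cycloheximide treatment that held ribosomes on the mRNA. The 12 libraries, each from 500 ng of RNA, formed 4 groups of 3, called control total, control polysomal, RBMX total and RBMX polysomal. Transfection was transient, no line was derived, and the share of cells that took up the plasmid was not given in the sources used here.

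RBMX itself lay between 87.4 and 148 FPKM in the 6 control libraries and between 1072 and 2073 FPKM in the 6 RBMX libraries. The 6 HEK293 markers (NEFL, NEFM, VIM, PAX2, KRT8 and KRT18) summed to between 397 and 974 FPKM per library. Of 6 markers of other cell types, COL1A1 reached 8.61 FPKM, and the other 5 stayed at or under 0.526 FPKM. Both libraries of control culture 3 stood apart. Their Spearman correlation with the other control libraries was 0.976 to 0.984 across genes, against 0.997 and 0.999 between control cultures 1 and 2, and the marker sum of the libraries outside culture 3 never fell under 834 FPKM. Results that rest on this culture are given with and without it. In RBMX cells polysomal replicates 2 and 3 correlated at 0.984, and the total and polysomal libraries of RBMX culture 2 departed from their group means with a correlation of 0.0248 across genes, the lowest of the 6 cultures. Without RBMX culture 2, 19 members were called over the remaining cultures in the comparison of fractions, and 18 with it, and 16 were in both sets. Leaving out another culture gave 8 to 17 members, with 8 without RBMX culture 3 or control culture 1 and 9 without control culture 2. FPKM carry no fragment counts, so the depth of a library is unknown.

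To show what the mRNAs of these factors begin with, 30-base windows around annotated transcript starts were read from the RefSeq promoter table (GRCh38.p14). Each runs 5′ to 3′ on the strand of the gene, from 10 bases before the start to 20 bases from it. Capitals mark an unbroken run of C and T that begins at the annotated start with a C and continues for at least 4 pyrimidines. The windows of EEF1A1, EEF1B2, EEF2, EIF3F, EIF4A2 and EIF3K hold such a run, and those of EEF1G, EIF4A1 and EIF4G1 do not.
EEF1A1: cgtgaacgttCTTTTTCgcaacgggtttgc
EEF1B2: ctcttcgggtCCTTTTTCCTCTCTTCagcg
EEF2: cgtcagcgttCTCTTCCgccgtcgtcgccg
EIF3F: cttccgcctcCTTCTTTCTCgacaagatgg
EIF4A2: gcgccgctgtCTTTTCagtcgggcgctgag
EIF3K: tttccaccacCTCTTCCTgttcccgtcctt
EEF1G: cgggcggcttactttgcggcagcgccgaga
EIF4A1: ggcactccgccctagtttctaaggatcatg
EIF4G1: gcggggagccggaaatggttgtggactacg

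The windows lie at chr6:73521013-73521042 on the minus strand for EEF1A1, chr2:206159885-206159914 on the plus strand for EEF1B2, chr19:3985444-3985473 on the minus strand for EEF2 and chr11:7987327-7987356 on the plus strand for EIF3F. Those of EIF4A2, EIF3K, EIF4A1 and EIF4G1 lie on plus strands at chr3:186783567-186783596, chr19:38619178-38619207, chr17:7572815-7572844 and chr3:184314596-184314625. That of EEF1G lies at chr11:62573872-62573901 on the minus strand. EEF1B2 has 2 annotated starts, of which 1 holds the run and is shown, and the other genes shown with a run have 1 annotated start each.

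The first comparison asked which factor mRNAs were less or more represented on polysomes than in total RNA. Over the 6 cultures the mRNAs of 3 elongation factors and 4 eIF3 subunits fell most clearly on polysomes, EEF1G by 0.75, EEF1A1 by 0.71, EIF3L by 0.67, EIF3E by 0.57, EIF3H by 0.49, EEF1B2 by 0.45 and EIF3F by 0.43 on the log2(FPKM + 1) scale. EIF3A, EIF5B and EIF4G1 rose by 0.31, 0.29 and 0.29. Without a block for the culture these rises did not pass 0.05 (limma adjusted p = 0.242, 0.272 and 0.482). Of the 59 members 13 were lower and 5 higher at an adjusted p up to 0.05 (limma with a block for the culture, Benjamini-Hochberg over 14676 genes), which is 22.0% and 8.47% of them. The background was 13.0% lower and 11.0% higher over all genes tested, 23.9% called in all. A fall here is a lower FPKM on polysomes than in the pool of all fractions of the same gradient, as the authors scaled the libraries. That pool itself includes the polysomal fractions. Each library averages over the cells of a culture, so a fall in all cells and one in some cannot be told apart.

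The direction of the smaller values depends on that scaling. FPKM summed to 1.17e+06 to 1.90e+06 in total and 817528 to 1.38e+06 in polysomal libraries, lower on polysomes in each culture, and the members made up 0.392 to 0.743% of the sum in total and 0.493 to 0.944% in polysomal libraries. With every library scaled to one summed FPKM, a setting added after the data had been seen, the median of all genes moved from -0.0025 to 0.36 and that of the members from -0.02 to 0.40. Then 3 members were lower (EEF1A1 at -0.29, EEF1G at -0.33 and EIF3L at -0.25) and 40 higher, with 264 lower and 10617 higher genes, and EIF1, EIF2D, EIF4A2 and EIF4B turned to values above 0. With small RNAs left out of the sum the medians were 0.10 and 0.10, with 11 members lower and 23 higher and 1136 genes lower and 4806 higher, and under quantile normalization 11 members were lower and 15 higher, with 1559 and 2996 genes. The values given next are those on the deposited scale.

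The comparison of 6 cultures was added after the data had been seen, because 3 libraries against 3 gave few calls. In control cells alone 12 genes of 14676 passed the adjusted threshold, 0.0818%, and in RBMX cells alone 196, or 1.34%, with 0 members in either (limma, no block). At an unadjusted limma p under 0.05 there were 11 of the 59 members in control cells, against 1180 of 14676 genes (8.04%). In RBMX cells there were 19 of the 59, against 3373 of 14676 genes (23.0%). With a block for the culture 6 and 4 genes passed, again with 0 members. Without control culture 3 the fit rested on cultures 1 and 2 alone, had no block and was added after the data had been seen. EEF1A1, EEF1B2, EEF1G, EIF3E, EIF3H and EIF3L then passed in control cells, with adjusted p-values from 0.0219 to 0.0428 (limma), among 199 genes in all.

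Among the core elongation factors EEF1A1, the main tRNA carrier, had 289.9, 285 and 247 FPKM in control total RNA and 162, 159.8 and 117 FPKM in control polysomal RNA of replicates 1 to 3. In RBMX cells it had 198, 215 and 246 FPKM in total and 162.5, 134 and 168 FPKM in polysomal RNA. Every polysomal library lay under every total library. The difference was -0.71 (95% interval -0.95 to -0.47, limma adjusted p = 0.0086), lower in 6 of 6 cultures, with the smallest fall in RBMX culture 1 at -0.28. EEF1A1 has many processed copies in the genome, so its level depends on how shared fragments were assigned.

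EEF1G, the gamma subunit of eEF1B, had the largest 6-culture change of all members tested. It had 405, 414 and 367 FPKM in control total and 200.0, 220.0 and 210.0 FPKM in control polysomal RNA, and 311, 351 and 401 FPKM in RBMX total and 240.1, 223 and 243 FPKM in RBMX polysomal RNA. The polysomal libraries again lay under all total libraries. The fall was 0.75 on the log2 scale (95% interval -0.95 to -0.54, adjusted p = 0.0055, limma), to a ratio of 0.597. Of the 1904 genes called lower, 146 had a larger fall than EEF1G, and 166 a larger one than EEF1A1.

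EEF1B2, a nucleotide exchange chain of the same complex, had 196, 192 and 217 FPKM in control total and 138, 142 and 161 FPKM in control polysomal RNA. Its RBMX libraries held 170.4, 188 and 214 FPKM in total and 146, 115 and 158 FPKM in polysomal RNA. The fall was 0.45 (adjusted p = 0.0077, limma), and all 6 cultures showed it. EEF1D, the third chain, differed by -0.05 (adjusted p = 0.231, limma), with 88.2 to 124 FPKM in total and 83.6 to 118 FPKM in polysomal RNA. The chains of one complex thus had separate values, and those of EEF1D overlapped between fractions.

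EEF2, the translocase, had the highest level of all members in control total RNA, 1031, 994 and 667 FPKM, and 824, 819.7 and 549.8 FPKM in control polysomal RNA. RBMX total libraries held 859, 799 and 881 FPKM, and the polysomal ones 766, 828 and 748 FPKM. The difference was -0.20 (adjusted p = 0.077, limma), negative in 5 of 6 cultures and 0.05 in RBMX culture 2, so the call was not reached. It passed in a fit without the intensity trend (-0.20, adjusted p = 0.036, limma) and without RBMX culture 2 (-0.26, adjusted p = 0.0236, limma). Under quantile normalization the value turned to 0.28 (adjusted p = 0.147, limma). EEF1A2, the form of eEF1A known from muscle and neurons, had 54.7 to 91.7 FPKM in total and 53.9 to 94.5 FPKM in polysomal RNA and a difference of 0.04 (adjusted p = 0.633, limma). EEF1A2 lay between -0.10 and 0.28 over the cultures, and EEF1A1 between -1.07 and -0.28.

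**Figure D1:**
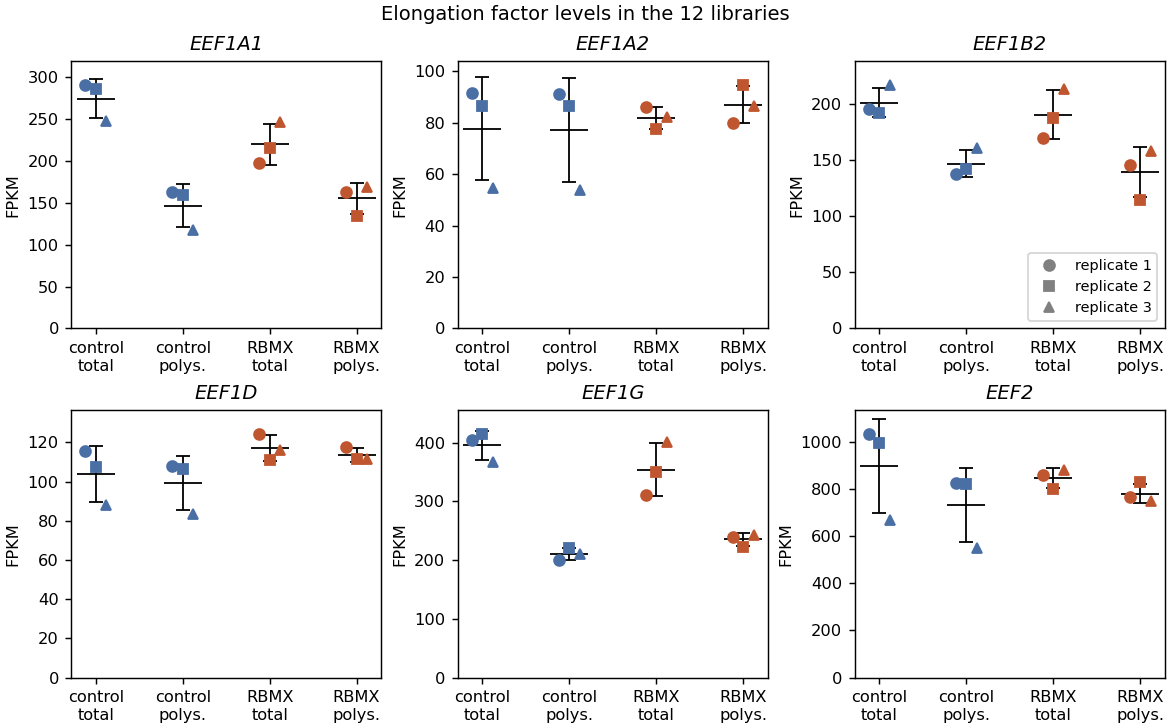
FPKM (y axis, from 0) of the 6 core elongation factors in the 12 libraries by group (x axis); points are libraries, marker shapes are replicates, and bars are the mean and SD of 3 libraries. EEF1A1, EEF1B2 and EEF1G sit lower in every polysomal than in every total library, while EEF1A2 and EEF1D overlap, and control replicate 3 is low in EEF1A2, EEF1D and EEF2.

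The elongation factors had a median polysomal minus total difference of -0.33 over the 6 cultures, against -0.02 for the 39 initiation factors tested and 0 for all genes to 2 decimals (-0.0025). That median lies between EEF1G, EEF1A1 and EEF1B2, called lower at -0.75 to -0.45, and EEF2, EEF1D and EEF1A2, not called at -0.20 to 0.04. It is thus the value of no single factor. In control cells the medians were -0.37 and -0.01, and in RBMX cells -0.29 and -0.04. The elongation median lay under the initiation median in each culture, by 0.42, 0.35 and 0.28 in control cultures 1 to 3 and by 0.17, 0.13 and 0.37 in RBMX cultures 1 to 3. These are descriptions over 6 and 39 genes, which are not replicates, and no test was made over them. Summed over the members, FPKM of the 6 elongation factors stood to that of the initiation factors as 0.356 to 0.414 in control total and 0.279 to 0.309 in control polysomal libraries. In RBMX cells the ratio was 0.340 to 0.373 in total and 0.289 to 0.334 in polysomal libraries. EEF2 makes up a large part of that sum.

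The eIF5A family, whose hypusinated product helps ribosomes through difficult peptide bonds and in termination, showed 0 calls over the 6 cultures (limma), also at an unadjusted p under 0.05. EIF5A had 636 to 821 FPKM in total and 685 to 847 FPKM in polysomal libraries, a difference of 0.13 (limma adjusted p = 0.201). EIF5AL1, a near-identical copy whose fragments cannot be told apart with certainty from those of EIF5A, differed by 0.14, and EIF5A2 by -0.12. In control cells alone EIF5AL1 had 0.21, with an unadjusted p under 0.05 and an adjusted p of 0.598 (limma).

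eIF3 is the large scaffold on the small subunit. Of its 13 tested genes 4 were lower and 2 higher on polysomes, 30.8% and 15.4% against 13.0% and 11.0% of all genes, and the others had differences between -0.17 and 0.19. EIF3L had 268, 268 and 235 FPKM in control total and 145, 154 and 128 FPKM in control polysomal RNA, with 196, 208 and 244 FPKM against 158, 136 and 164 FPKM in RBMX cells. Its libraries did not overlap between fractions, and the fall of 0.67 (95% interval -0.87 to -0.47, adjusted p = 0.0063, limma) was seen in 6 of 6 cultures.

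EIF3E had 158, 156 and 132 FPKM in control total and 110.5, 107 and 67.8 FPKM in control polysomal RNA. In RBMX cells it had 122, 142 and 136 FPKM in total and 107, 75.6 and 108 FPKM in polysomal RNA. The fall was 0.57 (adjusted p = 0.018, limma), largest in control culture 3 at -0.95 and in RBMX culture 2 at -0.90. The call of EIF3E was lost without control culture 1 or 2 (adjusted p = 0.0531 and 0.0519, limma). EIF3L and EIF3E are core subunits that sit beside EIF3K and EIF3D in the complex. EIF3K, at 527 to 610.0 FPKM in total and 538 to 659 FPKM in polysomal libraries, differed by 0.02, and EIF3D by 0.02, with adjusted p-values of 0.791 and 0.770 (limma).

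EIF3F and EIF3H, which pair through their MPN domains, fell by 0.43 and 0.49 (adjusted p = 0.0076 and 0.008, limma). EIF3F had 85.8, 93.6 and 84.5 FPKM in control total and 57.9, 61.6 and 59.3 FPKM in control polysomal RNA, and 76.8, 82.5 and 88.6 FPKM against 66.1, 63.2 and 71.3 FPKM in RBMX cells. EIF3H had 146, 146 and 127 FPKM in control total and 100.4, 105 and 82.8 FPKM in control polysomal RNA, and 120.2, 133 and 129 FPKM against 96.4, 79.6 and 108 FPKM in RBMX cells. For both genes all polysomal libraries lay under all total ones. EIF3M, which joins them in the core, was lower in 6 of 6 cultures at -0.17, without passing the threshold (adjusted p = 0.0949, limma).

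EIF3A and EIF3B, the large subunits on which the complex is built, rose. EIF3A had 58.3, 61.2 and 36.7 FPKM in control total and 70.6, 71.0 and 43.1 FPKM in control polysomal RNA, and 53.6, 45.8 and 57.3 FPKM against 62.6, 72.1 and 69.2 FPKM in RBMX cells. The difference was 0.31 (adjusted p = 0.0209, limma), higher in 6 of 6 cultures. EIF3B rose by 0.15 (adjusted p = 0.0346, limma), also in 6 of 6. Both lost the call without the culture block, with adjusted p-values of 0.242 and 0.686 (limma). EIF3A and EIF3B were lower in control culture 3 than in the other control cultures in both fractions. Without that culture both kept the call, and EIF4B, EIF4EBP3 and EIF5B lost theirs. EIF3A lost it without RBMX culture 3, control culture 1 or control culture 2 (adjusted p = 0.0602, 0.0581 and 0.0507, limma). EIF3B lost it without RBMX culture 1 or 3 or control culture 1 or 2 (adjusted p = 0.0714, 0.0983, 0.0926 and 0.0663, limma). EIF3C, the third large subunit, was listed at 0.831 to 3.54 FPKM, and its near-identical copy EIF3CL at 0 to 0.139 FPKM, so neither value is a reliable level.

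**Figure D2:**
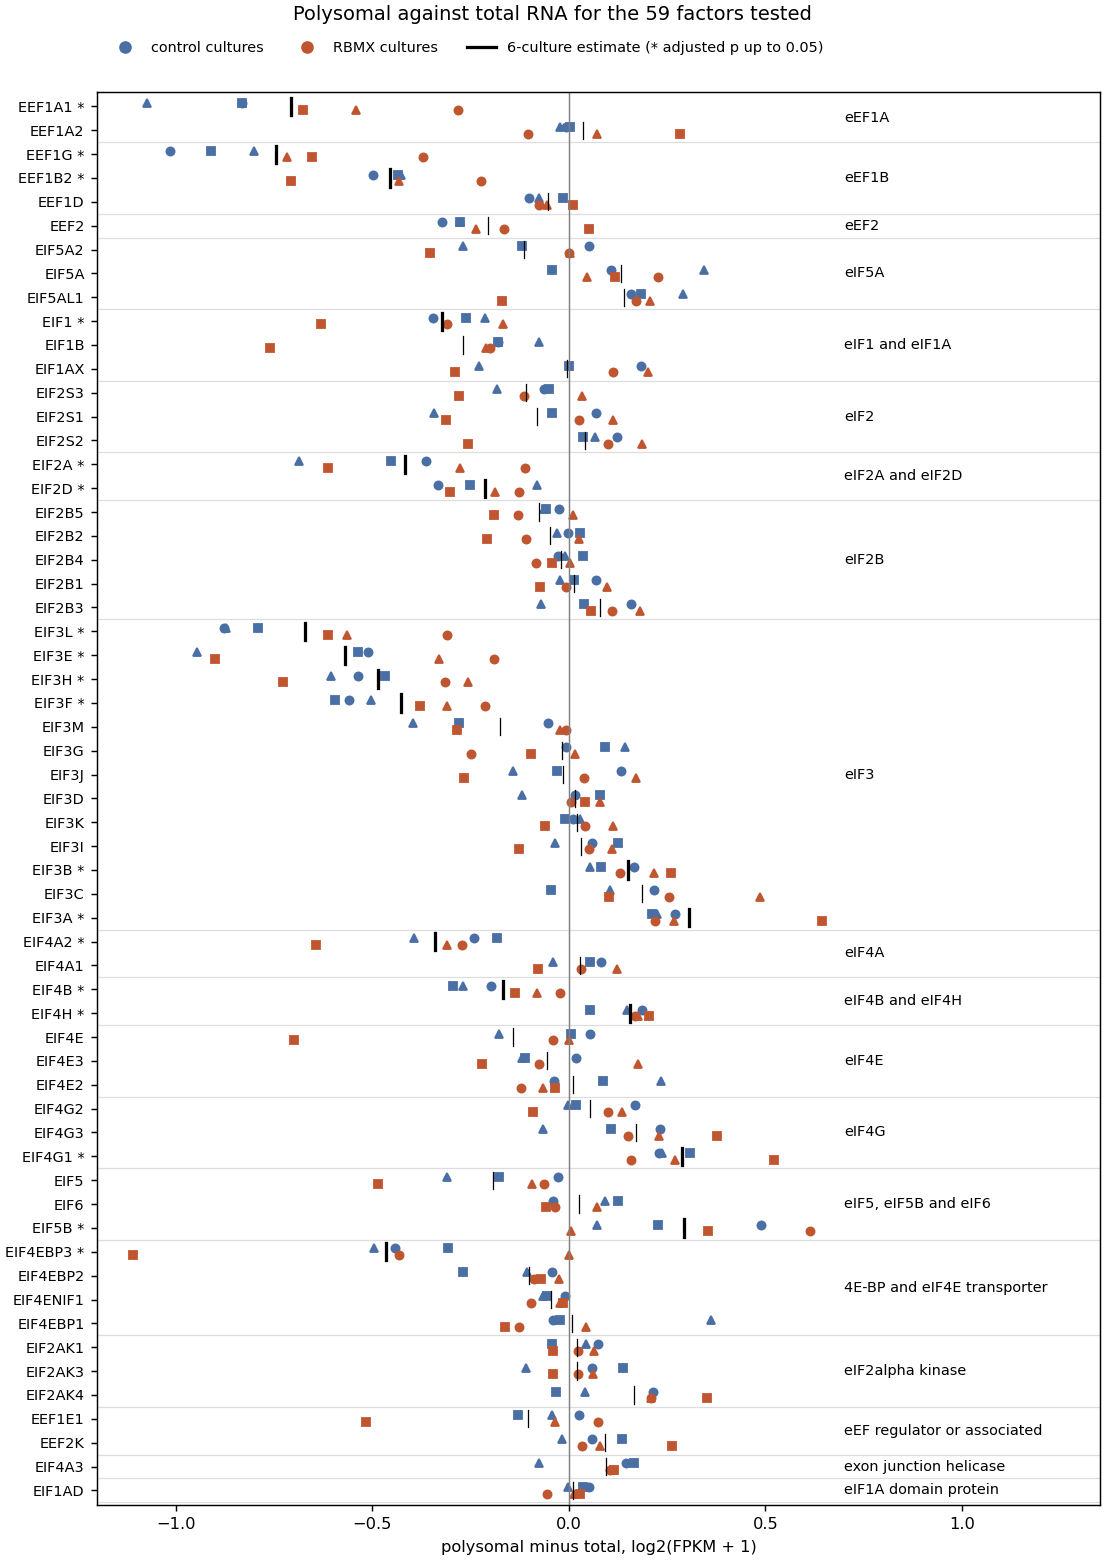
Polysomal minus total difference on the log2(FPKM + 1) scale (x axis) for the 59 factors tested, grouped by role (y axis); points are the 3 control and 3 RBMX cultures (circle, square and triangle for replicates 1 to 3), vertical lines the 6-culture estimate, and asterisks an adjusted p up to 0.05 by limma. EEF1A1, EEF1G, EIF3L, EIF3E, EIF3H, EIF3F and EEF1B2 have all 6 points under 0, and EIF3A, EIF3B, EIF4G1, EIF4H and EIF5B all 6 above it. EEF2, EIF1 and EEF1D change sign under quantile normalization, and these, EIF2D, EIF4A2 and EIF4B do with libraries scaled to one summed FPKM.

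The cap-binding machinery also differed by member. EIF4A2, the second of the RNA helicases that open the leader, had 105, 95.6 and 112 FPKM in control total and 88.9, 84.0 and 85.1 FPKM in control polysomal RNA. In RBMX cells it had 118, 125 and 107 FPKM in total and 97.6, 79.8 and 86.0 FPKM in polysomal RNA. It fell by 0.34 (adjusted p = 0.0164, limma), between -0.64 and -0.18 over the cultures. EIF4A1, its closest relative and the more abundant form at 298 to 523 FPKM in total RNA, differed by 0.03 (adjusted p = 0.703, limma), between -0.08 and 0.12. The ranges of both paralogs did not overlap.

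EIF4G1, the scaffold, rose by 0.29 (adjusted p = 0.0149, limma), from 95.1, 91.8 and 43.5 FPKM in control total to 112, 114 and 51.5 FPKM in control polysomal RNA and from 95.7, 82.6 and 88.3 FPKM to 107, 119 and 107 FPKM in RBMX cells. Polysomal exceeded total RNA in 6 of 6 cultures. The call was lost without the culture block (adjusted p = 0.482, limma) and without RBMX culture 3 (adjusted p = 0.0517, limma). Of its relatives, EIF4G3 differed by 0.17 (adjusted p = 0.066, limma) and EIF4G2, which lacks the eIF4E-binding part, by 0.05. EIF4H and EIF4B, which both stimulate eIF4A, moved apart, EIF4H rising by 0.16 (adjusted p = 0.0246, limma) and EIF4B falling by 0.17 (adjusted p = 0.0368, limma). Without the culture block their adjusted p-values were 0.174 and 0.206, and EIF4B did not pass under quantile normalization (adjusted p = 0.076, limma). EIF4H lost the call without RBMX culture 1 or 3 or control culture 1 (adjusted p = 0.0594, 0.0755 and 0.0766, limma). EIF4B lost it without any culture but RBMX culture 1 (adjusted p = 0.0561 to 0.0955, limma). With libraries scaled to one summed FPKM, EIF4B was called higher at 0.245 (adjusted p = 0.0244, limma).

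Among cap binders EIF4E had 8.59 to 10.5 FPKM in total and 5.53 to 9.12 FPKM in polysomal libraries, and its difference of -0.14 (limma adjusted p = 0.330) rested on RBMX culture 2, at -0.70 against -0.18 to 0.05 in the others. EIF4E2 and EIF4E3 differed by 0.01 and -0.06. EIF4EBP3, an eIF4E-binding inhibitor, was called lower at -0.46 (adjusted p = 0.0439, limma) on 0 to 2.58 FPKM, and RBMX replicate 3 was listed at 0 in both fractions. EIF4EBP2, another of these inhibitors, was lower in 6 of 6 cultures by 0.03 to 0.27 and did not pass (adjusted p = 0.0918, limma).

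Start codon selection and tRNA delivery gave 3 calls, EIF1, EIF2A and EIF2D. EIF1, which guards the choice of start codon, had 510.2, 518 and 606 FPKM in control total and 401, 432 and 522 FPKM in control polysomal RNA, and fell by 0.32 over the 6 cultures (adjusted p = 0.0246, limma). This direction turned to 0.05 under quantile normalization. EIF1B, its close relative, was lower in 6 of 6 cultures at -0.27 without passing the threshold (adjusted p = 0.0677, limma). In RBMX cells alone EIF1B had -0.39, with an unadjusted limma p of 0.0383 and an adjusted p of 0.197, and RBMX culture 2 had -0.76. EIF2A and EIF2D, which can deliver tRNA without eIF2, fell by 0.42 and 0.21 (adjusted p = 0.0169 and 0.0177, limma). Neither passed without control culture 1 (adjusted p = 0.0501 and 0.0542, limma) or control culture 2 (adjusted p = 0.0519 and 0.0542, limma). EIF2A had 19.3, 20.0 and 19.0 FPKM in control total and 14.8, 14.3 and 11.4 FPKM in control polysomal RNA. By contrast the 3 subunits of eIF2 differed by -0.11 to 0.04 and the 5 of eIF2B by -0.08 to 0.08, with 0 calls (limma), also at an unadjusted p under 0.05.

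EIF5B, the GTPase of subunit joining, rose by 0.29 with an adjusted p of 0.0493 (limma), at the edge of the threshold, and its cultures ran from 0.01 to 0.61. The call was lost whichever culture was left out (adjusted p = 0.0533 to 0.121, limma) and without the culture block (adjusted p = 0.272, limma). EIF5, the partner of eIF2 in start recognition, was lower in 6 of 6 cultures at -0.19 (adjusted p = 0.0723, limma), and EIF6, which keeps free large subunits apart, differed by 0.03. Of the associated proteins the eIF2alpha kinase EIF2AK4, the sensor of uncharged tRNA, differed by 0.16 (adjusted p = 0.0628, limma), and EEF2K, the kinase of eEF2, by 0.09. Of the 59 members 17 were lower in all 6 cultures, against 2415 of 14676 genes (16.5%). Higher in all 6 were 5 of the 59, against 2346 of 14676 genes (16.0%).

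The 9 members on a list of known TOP mRNAs (EEF1A1, EEF1B2, EEF1D, EEF1G, EEF2, EIF3E, EIF3F, EIF3H and EIF4B) had differences between -0.75 and -0.05, with a median of -0.45 against -0.0025 over all genes. On the deposited scale 7 of the 9 were called lower and 0 higher, 77.8% and 0% against 13.0% and 11.0% of all genes. The list was chosen with earlier results of these data known. With libraries scaled to one summed FPKM, only EEF1A1 and EEF1G of the 9 stayed called lower. EEF1D and EIF4B were then called higher, at 0.364 and 0.245, among 10617 genes called higher. EEF2 and EEF1D were not called on the deposited scale.

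In the RefSeq promoter table used here, 51 of the 62 members had an annotated start, 49 of them tested. Tested members without a start there included EIF3L, EIF3E and EIF3H, which were called lower, and EIF3A, which was called higher. EEF1D and EEF1A2 were also among them. Their starts were not read, so the counts below leave them out. A C followed by at least 4 pyrimidines at an annotated start, as in the EEF1A1 and EIF3F windows above, was found in 12 of the 49, or 24.5%, against 7.23% of the 10312 tested genes with a start in the table and 4.07% of all 35116 promoters. Only the strand of the gene was read, and a gene counted when any of its starts held the run. Among the 12, 7 were called lower and 0 higher, with a median of -0.21. Of the 37 without the run 3 were lower (EEF1G, EIF1 and EIF4EBP3) and 4 higher, with a median of 0.01. Over the genes tested 19.0% of those with the run and 11.4% of the others were called lower, and their medians were -0.01 and 0.00 (-0.0148 and 0.00461).

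The run and the polysomal value did not always go together. EIF3K and EIF3D start with a C and long runs and had values near 0, whereas EEF1G had the largest fall over the 6 cultures and its one annotated start, printed above, has no run. EIF4A2 has the run and fell, and EIF4A1 has none and did not pass. The tract is a description of the annotated start, and the start used in these cells was not measured.

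**Figure D3:**
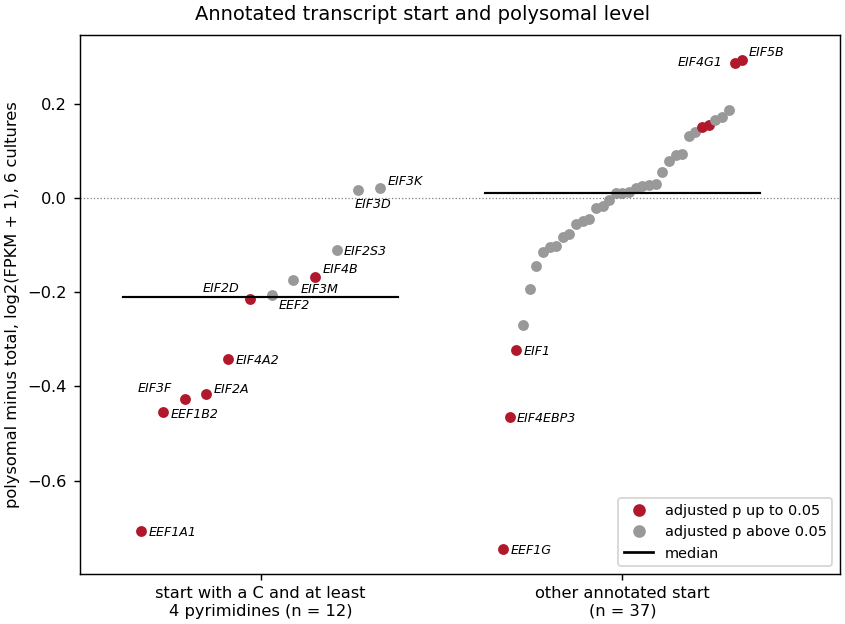
Polysomal minus total difference over the 6 cultures on the log2(FPKM + 1) scale (y axis) for the 49 tested factors with an annotated start in the promoter table, by whether the start is a C with at least 4 pyrimidines (x axis). Points are genes spread by rank, red points have an adjusted p up to 0.05 by limma, and lines are medians. The 12 with the run have a median of -0.21 and the 37 others 0.01, while EIF3K and EIF3D lie near 0 and EEF1G is lowest without the run. EEF2 and EIF1 change sign under quantile normalization, and these, EIF2D, EIF4A2 and EIF4B do with libraries scaled to one summed FPKM.

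Genes of the same pathway outside the symbol rule were read from lists. Of 15 genes on a list of initiation partners and related genes, 3 were lower on polysomes and 3 higher, 20% each against 13.0% and 11.0% of all genes. PABPC1, the poly(A)-binding protein that contacts eIF4G, fell by 0.83 (adjusted p = 0.00552, limma), from 174 to 181 FPKM in control total to 79.9 to 91.4 FPKM in control polysomal RNA. TPT1, a TOP mRNA that encodes the translationally controlled tumor protein, fell by 1.34 (adjusted p = 0.00109, limma), a larger fall than that of any member, and PPP1R15B, which directs dephosphorylation of eIF2alpha, by 0.18. LARP1, the protein that binds TOP tracts, rose by 0.22, GCN1L1 by 0.29 and ABCF1 by 0.26. Of the 6 termination and recycling factors tested 0 were called (limma) and 1, GSPT2, had an unadjusted p under 0.05, with differences from -0.16 to -0.03. Of 9 mitochondrial translation factors 3 were lower and 1 higher, against the same 13.0% and 11.0%, the release factors MTRF1L and MTRF1 by 0.42 and 0.50 and MRRF by 0.19, and TUFM by 0.18 in the upward direction.

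The second comparison asked whether RBMX overexpression changed the level of the factors. In total RNA 24 genes of 14676 passed the adjusted threshold, 0.164%, and in polysomal RNA 7, or 0.0477%, with 0 of the 59 members in either (limma). At an unadjusted limma p under 0.05 there were 9 of the 59 members in total RNA, against 2756 of 14676 genes (18.8%). In polysomal RNA there were 3 of the 59, against 1715 of 14676 genes (11.7%). With 3 libraries against 3 no exact two-sided permutation p can fall under 0.1. In total RNA 7 of the 59 members lay wholly lower and 10 of the 59 wholly higher in RBMX cells. Over the 14676 genes these were 2258 (15.4%) and 1745 (11.9%). In polysomal RNA they were 2 and 9 of the 59, against 1834 (12.5%) and 1467 (10.0%) of the 14676 genes.

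The 2 members wholly lower in polysomal RNA, EIF4E3 and EIF4EBP2, were also wholly lower in total RNA. EIF4E3, an unusual cap-binding relative of eIF4E, had 11.0, 11.9 and 13.1 FPKM in control and 8.03, 8.95 and 9.11 FPKM in RBMX total RNA. In polysomal RNA it had 11.2, 11.0 and 12.0 FPKM against 7.56, 7.53 and 10.4 FPKM. The differences were -0.42 (95% interval -0.64 to -0.21, adjusted p = 0.170, limma) and -0.39 (95% interval -0.73 to -0.06, adjusted p = 0.405, limma).

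EIF4EBP2 had 44.7, 52.3 and 50.9 FPKM in control and 33.3, 36.1 and 41.4 FPKM in RBMX total RNA, and 43.3, 43.2 and 47.2 FPKM against 31.3, 34.3 and 40.6 FPKM in polysomal RNA. The differences were -0.41 (adjusted p = 0.176, limma) and -0.33 (adjusted p = 0.403, limma). Without control culture 3 both genes kept values of similar size, -0.37 and -0.38 in total and -0.36 and -0.29 in polysomal RNA. The sister gene EIF4EBP1 differed by -0.10 in total and by -0.29 in polysomal RNA, where its groups overlapped.

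EEF1A1 differed by -0.32 in total RNA (95% interval -0.60 to -0.04, adjusted p = 0.229, limma), where its 3 RBMX libraries lay under all 3 controls, and by 0.09 in polysomal RNA. EIF2B5, the catalytic subunit of eIF2B, had 16.9, 17.3 and 13.2 FPKM in control and 21.9, 20.9 and 19.0 FPKM in RBMX total RNA, a difference of 0.37 (adjusted p = 0.212, limma), and 0.32 in polysomal RNA. Without control culture 3 these were 0.25 and 0.19. The remaining members with an unadjusted p under 0.05 in total RNA were EIF3G at 0.29, EIF2B2 at 0.27, EIF5 at 0.20, EIF6 at 0.20 and EIF1AX at -0.30. Without control culture 3 these were 0.22, 0.16, 0.23, 0.15 and -0.20.

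Several of the largest values rested on control culture 3. EIF4A3, a helicase of the exon junction complex rather than of initiation, had 93.9, 95.3 and 40.6 FPKM in control and 105, 102 and 104 FPKM in RBMX total RNA. Its difference of 0.53 became 0.13 without that culture. In the same way EIF4G1 went from 0.29 to -0.07, EIF3B from 0.31 to 0.01 and EIF4A1 from 0.31 to 0.08 in total RNA. The HEK293 marker sum was low in the same culture, at 397 FPKM in its polysomal library, and why this culture differed was not tested.

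**Figure D4:**
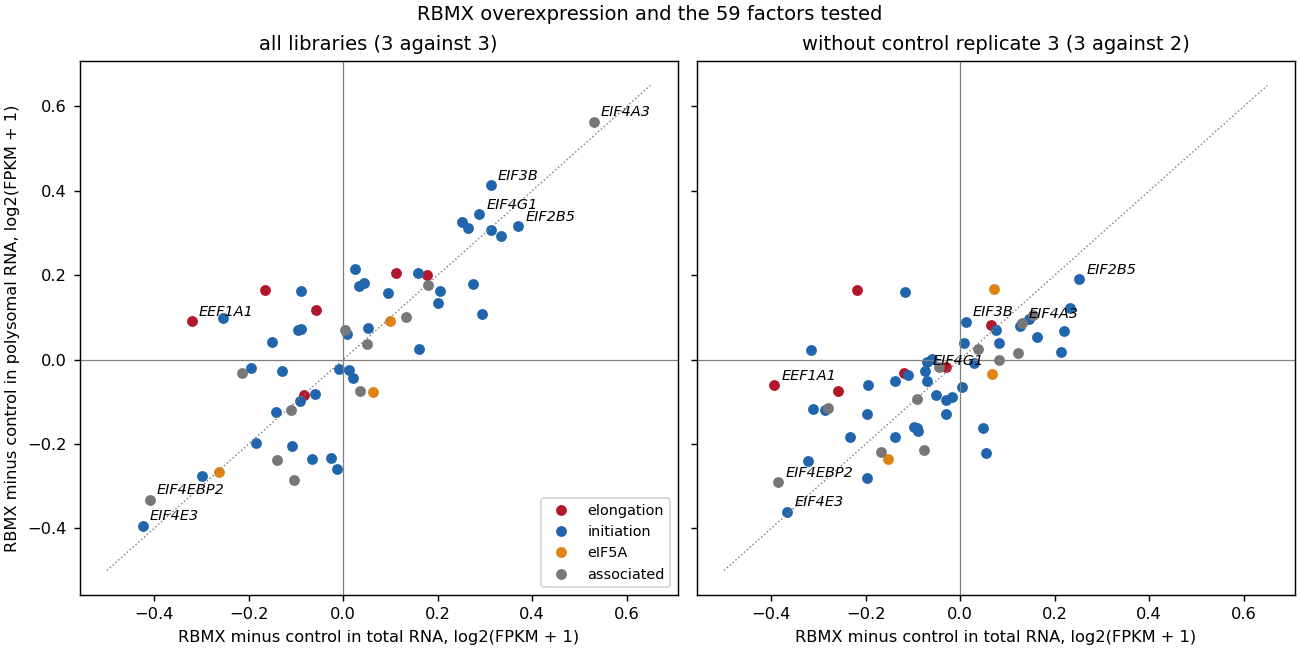
RBMX minus control difference on the log2(FPKM + 1) scale in total RNA (x axis) and polysomal RNA (y axis) for the 59 factors tested, colored by class, with all libraries (left) and without control replicate 3 (right); dotted lines mark equal values, and both axes draw on the same cultures. EIF4A3, EIF4G1 and EIF3B move toward 0 on the right, while EIF4E3 and EIF4EBP2 stay near -0.4 to -0.3 in both panels, and 0 members passed the adjusted threshold.

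The third comparison asked whether the RBMX effect differed between polysomal and total RNA. Over all genes 3 passed the adjusted threshold, 0.0204%, and 0 of the 59 members did. At an unadjusted limma p under 0.05 there was 1 of the 59 members, against 88 of 14676 genes (0.6%). That member was EIF3F, with a difference of 0.25 between the effects (95% interval 0.02 to 0.49, with a limma adjusted p that rounds to 1.0). EEF1A1 had 0.41, EIF3L 0.35 and EEF1G 0.33, with adjusted p-values that also round to 1.0 (limma). With the culture as a block 5 of the 59 members had an unadjusted limma p under 0.05, against 316 of 14676 genes (2.15%). They were EIF3F at 0.0126, EIF3L at 0.0168, EEF1A1 at 0.0236, EIF4B at 0.0338 and EEF1G at 0.044, and their adjusted p-values again round to 1.0. The polysomal minus total differences behind these values were -0.50 in RBMX and -0.91 in control cells for EEF1A1, -0.58 and -0.91 for EEF1G, -0.50 and -0.85 for EIF3L, and -0.30 and -0.55 for EIF3F. After adjustment none of these was shown to differ between the vectors. The median over the elongation factors was 0.13 and over the initiation factors 0.02, against -0.0019 over all genes.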

How the data were processed

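RNA-seq was done on total and polysomal RNA of HEK293 cultures. The authors deposited FPKM values per gene symbol, and the submitters' processing notes name CASAVA 1.8, TopHat2 2.0.13, Cufflinks 2.2.1, Cuffnorm and hg19. The paper's methods describe another alignment (hg38) and DESeq2 for the study's own comparison, and how fragments shared by gene copies were assigned is not given in the sources used here. Read counts were not used here, so depth is unknown. FPKM was set on the log2(FPKM + 1) scale, which understates changes of low genes, and all 14676 genes averaging 0.5 FPKM or more entered the tests with limma 3.58.1 in R 4.3.3 (lmFit, eBayes with trend). Tables and plots used Python 3.11.15 and matplotlib 3.10.9. The fits were tested on simulated data with unpaired libraries and planted changes larger than those of the members. Recovery of paired changes of the size seen here was therefore not tested.

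Groups came from the sample labels, and 0 columns were left unmatched. Benjamini-Hochberg adjustment ran over all genes tested with a threshold of 0.05. The members, lists (TOP members, initiation partners and related genes, termination and recycling, mitochondrial factors and markers) and tests were chosen with earlier results of these data known. Named were all elongation factors and eIF5A genes, in each initiation role the most abundant member and those with extreme differences, every member with an unadjusted p under 0.05 in any comparison, and paralogs of these. The p-values measure only the spread between these samples.

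Total and polysomal RNA of a culture came from 1 gradient, per the protocol, so these are pairs. Across genes, the departures of both libraries from their group means had correlations of 0.629, 0.728 and 0.858 in control and 0.234, 0.0248 and 0.703 in RBMX cultures 1 to 3. Across vectors same-numbered libraries correlated with -0.158 to 0.354, so the numbers were not taken as pairs. Results were recomputed with quantile normalization, with median-ratio rescaling, with 0.1 as pseudocount, with a filter at 1 FPKM or none, without trend, with or without a replicate block, over all 12 libraries together, and with single replicates dropped. The 6-culture comparison, its scalings to one summed FPKM (with and without small RNAs) and leaving out both libraries of a culture were added after seeing the data.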

Additional observations from a re-analysis of the deposited data

How the results depend on the processing

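The calls of EEF1A1, EEF1G and EIF3L over 6 cultures held under all 15 alternatives tried, and those of EEF1B2, EIF3F and EIF3H under 14. EIF4A2 and EIF4G1 passed under 13, EIF2A and EIF3E under 12, EIF3A and EIF4H under 11 and EIF2D and EIF3B under 10. Fewest were EIF1 under 8, EIF4B and EIF4EBP3 under 6 and EIF5B under 5. EIF4B passed in the opposite direction with libraries scaled to one summed FPKM. With libraries scaled to one summed FPKM 43 members and 10881 genes passed, mostly upward, and EEF1B2, EIF3F and EIF3H had -0.0371, -0.0132 and -0.0690. That scaling reversed EEF1D to 0.364, EEF2 to 0.214, EIF1 to 0.0971, EIF2D to 0.195, EIF4A2 to 0.0748 and EIF4B to 0.245. Without small RNAs in the sum 34 members and 5942 genes passed and EEF1D reversed to 0.0674. The all-gene median moved by construction, and no further cause was tested. Without the culture block (no replicate block) 10 members and 1310 genes passed in place of 18 and 3512, and without a filter 2129 genes. Leaving out a culture gave 8 to 19 members and 839 to 3117 genes, with 8 members without RBMX culture 3 or control culture 1 and 9 without control culture 2. In control cells polysomal against total RNA gave 12 genes, 41 with 4 members (EEF1A1, EEF1G, EIF3F and EIF3L) in a fit of all 12 libraries, 6 genes with the replicate block, 1 member without trend, and 12 to 199 genes with 0 to 6 members when a replicate was left out. In RBMX cells 196 genes became 21 with all 12 libraries, 53 without a filter, 70 under quantile normalization, 4 with the replicate block and 10 to 42 with a replicate left out. RBMX against control gave 24 genes in total RNA, 60 with all 12 libraries, 73 without a filter, 13 with the replicate block and 19 to 178 with a replicate left out, and 7 in polysomal RNA, 22 with all 12 libraries, 3 with the block and 9 to 126 with a replicate left out, always with 0 members. The difference of effects gave 3 genes, 5 without a filter, 5 with the block and 3 to 7 with a replicate left out. The pairing of total and polysomal libraries changed no call of a member within a vector.

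The elongation minus initiation median stayed negative on polysomes, at -0.407 to -0.304 in control cells, -0.287 to -0.173 in RBMX cells and -0.330 to -0.272 over 6 cultures with a replicate left out, and at -0.235 in control cells under quantile normalization against -0.365. With a replicate left out the RBMX effect had -0.118 to -0.0306 in total and 0.0267 to 0.101 in polysomal RNA, and the difference of effects 0.0499 to 0.283. Quantile normalization reversed EEF2 to 0.132 in control, 0.433 in RBMX cells and 0.282 over 6 cultures, EIF1 to 0.118 in RBMX cells and 0.0509 over 6, EEF1D to 0.0720 in RBMX cells and 0.0192 over 6, and EEF1A2 to 0.0123 in control cells, and the cause was not tested. Leaving out a replicate reversed EEF1A2 within -0.241 to 0.227 in control, -0.0165 to 0.176 in RBMX cells and -0.0126 to 0.0646 over 6 cultures, and EEF1D within -0.176 to 0.0542 and -0.0789 to 0.00208 in the same 2 single-vector comparisons. Depth is unknown.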
